A study of Mus musculus with 6 samples.

Results

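The genes described here encode the core histones H2A, H2B, H3 and H4 of the clusters Hist1 to Hist4, the replication-dependent copies. They were found by gene name on the arrays: every probe that is not a control and whose name starts with Hist1h, Hist2h, Hist3h or Hist4h was taken, and the linker histones named Hist1h1 were left out. That gave 43 gene names with 49 probes, of 34844 gene names with 55681 probes on the array. H2A had 14 of the gene names, H2B 12, H3 8 and H4 9. By cluster, 30 belonged to Hist1 on chromosome 13, 9 to Hist2 on chromosome 3, 3 to Hist3 on chromosome 11 and 1 to Hist4 on chromosome 6. The RNA came from G1E-ER-GATA-1 cells, a single mouse line of red cell precursors in which the Gata1 gene is lost and which carries instead a fusion of GATA-1 to the estrogen receptor's ligand-binding domain, so that estradiol switches the factor on. The first group of 3 arrays came from cells given non-targeting control siRNA, and the second group of 3 from cells given siRNA against SetD8. Both groups were nucleofected at 0 h and again at 24 h, received β-estradiol for the last 24 h and were collected at 48 h, so no array comes from untransfected cells or from cells without estradiol. Total RNA, 0.1 ug per sample, was amplified and labelled with Cy3 and hybridised in 1 colour. SetD8 is the enzyme that places the first methyl group on lysine 20 of histone H4, which makes histone H4 its substrate.

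Cells make most of their core histones during S phase, when new DNA has to be wrapped into nucleosomes, and the genes lie in clusters that are switched on together by NPAT at the G1/S boundary. Their mRNAs are unusual among animal mRNAs: they have no introns and end, after cleavage, in a short conserved stem-loop bound by the protein SLBP in place of a poly(A) tail. A minority of transcripts from these genes is polyadenylated, reads past the stem-loop and is seen mostly in differentiated cells. Amplification kits of the kind used here start from the poly(A) tail, so the signal of a core histone probe may come from polyadenylated or internally primed RNA, and which of these it measured was not tested.

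Sets of probe letters from 3 regions show what these measurements can and cannot tell apart; all are copied from the array's own annotation, 5′ to 3′. The first set shows how alike the copies are. It is the end of the H2A coding sequence in 4 genes, with capitals at the 10 positions where the 4 probes do not all carry the same base:

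Hist1h2af: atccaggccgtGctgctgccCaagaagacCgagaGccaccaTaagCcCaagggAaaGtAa
Hist1h2ak: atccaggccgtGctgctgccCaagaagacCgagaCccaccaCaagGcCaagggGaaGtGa
Hist1h2an: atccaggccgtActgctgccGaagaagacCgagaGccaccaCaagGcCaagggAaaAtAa
Hist2h2aa2: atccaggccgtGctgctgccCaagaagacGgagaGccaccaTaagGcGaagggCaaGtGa

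Between 52 and 55 of the 60 bases were identical in each pair of these probes, although Hist2h2aa2 lies on another chromosome than the other 3. Their mm9 positions are chr13:23626113-23626172 for Hist1h2af, chr13:21845304-21845363 for Hist1h2ak, chr13:21878695-21878754 for Hist1h2an and chr3:96049837-96049896 for Hist2h2aa2. Each ends in a stop codon, so all lie in coding sequence.

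The second set shows the stem-loop at the end of the message, where a probe can reach the RNA only up to the cleavage site of the mature form. Capitals mark CTTTTCAG, the letters of the stem-loop that these probes share, with at most 30 bases around them:

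Hist1h3a: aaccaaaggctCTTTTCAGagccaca
Hist1h4m: aactaaaggccCTTTTCAGggccatccaa
Hist2h2bb: cccaaaaggctCTTTTCAGagccacttta
Hist2h2aa1: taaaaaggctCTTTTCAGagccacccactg
Hist1h2ae: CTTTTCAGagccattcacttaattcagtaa

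These letters stood in 6 of the 49 core histone probes (12.2%) and in 95 of all 55681 probes (0.171%), read on the probe's own strand. In Hist1h3a, Hist1h4m and Hist2h2bb the probe runs only 7 to 10 bases past them. In Hist2h2aa1 it runs on for 42 bases and in Hist1h2ae for 52, so these probes lie largely beyond the end of a mature replication-dependent message. The 60-base probes map on mm9 to chr13:23853756-23853815, chr13:21903960-21904019, chr3:96074056-96074115, chr3:96049949-96050008 and chr13:23662489-23662548, in the order shown.

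The third set shows the codon of H4 lysine 20, the residue that SetD8 methylates, in capitals inside the 4 of 14 H4 probes that hold it:

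Hist1h4c: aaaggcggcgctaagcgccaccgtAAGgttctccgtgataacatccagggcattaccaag
Hist1h4d: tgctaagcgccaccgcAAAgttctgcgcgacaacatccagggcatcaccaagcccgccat
Hist1h4j: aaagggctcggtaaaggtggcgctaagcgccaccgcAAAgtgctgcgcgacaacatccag
Hist1h4k: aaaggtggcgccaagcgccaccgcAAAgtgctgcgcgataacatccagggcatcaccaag

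The H4 genes differ in silent positions, so Hist1h4c spells the lysine AAG and the other 3 spell it AAA. These 4 probes lie at chr13:23790223-23790282, chr13:23673515-23673574, chr13:21826989-21827048 and chr13:21842279-21842338 on mm9, all in coding sequence.

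The knockdown was visible in the targeted gene. Values are given on 2 scales throughout: log2 of the scanner's processed signal minus the array's 75th percentile (the 75th percentile scale), and log2 signal after normexp background correction and quantile normalization between arrays (the quantile scale). Setd8 had 2 kept probes, and the values given are those of the brighter one. On the 75th percentile scale it read 4.34, 4.95 and 3.14 in controls 1 to 3 against 2.07, 1.82 and 1.83 in SetD8 1 to 3. Every SetD8 array lay below every control array, and the difference was -2.24 ± 0.51 (SE; limma adjusted p = 0.931). The quantile difference was -2.07 ± 0.16 (limma adjusted p = 0.0172). The arrays themselves were uneven: 40.2% to 82.5% of spots that are not controls were well above background on the 3 control arrays and 60.3% to 68.6% on the 3 SetD8 arrays. Slide 1 carried control 1 with SetD8 1 and 2, slide 3 carried control 3 with SetD8 3, and slide 2, whose scan date differs, carried control 2 and no SetD8 array. All 11 erythroid markers were well above background on all 6 arrays, with summed levels (in multiples of the array's 75th percentile) of 2041 to 4424 on control and 2308 to 3425 on SetD8 arrays. Of 30 markers of megakaryocytes, mast cells, myeloid, lymphoid and stromal cells, 16 were kept for testing and 0 passed the test. Ppbp, Ms4a2, Ms4a1 and Pdgfra were among those well above background on no array. Pf4, Itga2b, Gp1ba, Gp9, Elane, Csf1r, Itgam, Cd3e and Cd4 were among those well above background on all 6 arrays. The 5 kept megakaryocyte markers had median differences (SetD8 minus control) of 0.70 on the 75th percentile scale and 0.48 on the quantile scale. Of these 5, 0 were negative on either scale. The medians of the mast cell, myeloid, lymphoid and stromal lists were also above 0 on both scales. Summed levels on control and SetD8 arrays were 55.7 to 68.7 and 61.0 to 148 for megakaryocyte, 0.47 to 1.29 and 0.80 to 1.12 for mast cell, 13.9 to 28.5 and 18.2 to 26.1 for myeloid, 7.28 to 11.03 and 11.4 to 18.1 for lymphoid, and 0.28 to 1.46 and 1.04 to 3.28 for stromal markers. The labels do not state that replicate arrays stem from separate cultures; the p-values thus reflect array-to-array spread alone, and that spread may be technical. Their number, 3 against 3, limits the precision of every value.

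Core histone probes were mostly lower after SetD8 siRNA, but none passed the test. Of the 49 probes, 44 were kept, meaning that the scanner software called them well above background on every array of 1 group or of both, and 41 of those were so on all 6 arrays. Their median difference (SetD8 minus control) was -0.65 on the 75th percentile scale, where the median of all 30971 kept probes was 0.09, and -0.42 on the quantile scale, where it was 0.01. The 21039 probes well above background on all 6 arrays had medians of -0.11 and -0.03 in that order. The 41 core histone probes among them had -0.65 and -0.43. The shares given below are of all 30971 kept probes, dim ones included. A negative difference was measured for 38 of 44 on the 75th percentile scale (44% of all kept probes) and for 39 of 44 on the quantile scale (47.6% of all), and 37 were negative on both. Every SetD8 array lay below every control array for 17 of 44 (3.02% of all) and 29 of 44 (8.19% of all), in that order, and 13 probes did so on both scales. Not 1 of the 44 had every SetD8 array above every control array, against 4.55% and 9.49% of all probes. With limma and Benjamini-Hochberg adjustment over all 30971 probes, 0 of 44 had an adjusted p under 0.05 on either scale (0% and 0.323% of all probes). At an unadjusted p under 0.05, 6 of 44 were lower on the 75th percentile scale (0.668% of all) and 24 of 44 on the quantile scale (4.63% of all), while 0 of 44 were higher on either (1.83% and 5.64% of all). In a bulk sample, fewer cells in S phase and less histone RNA per cell cannot be told apart.

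**Figure D1:**
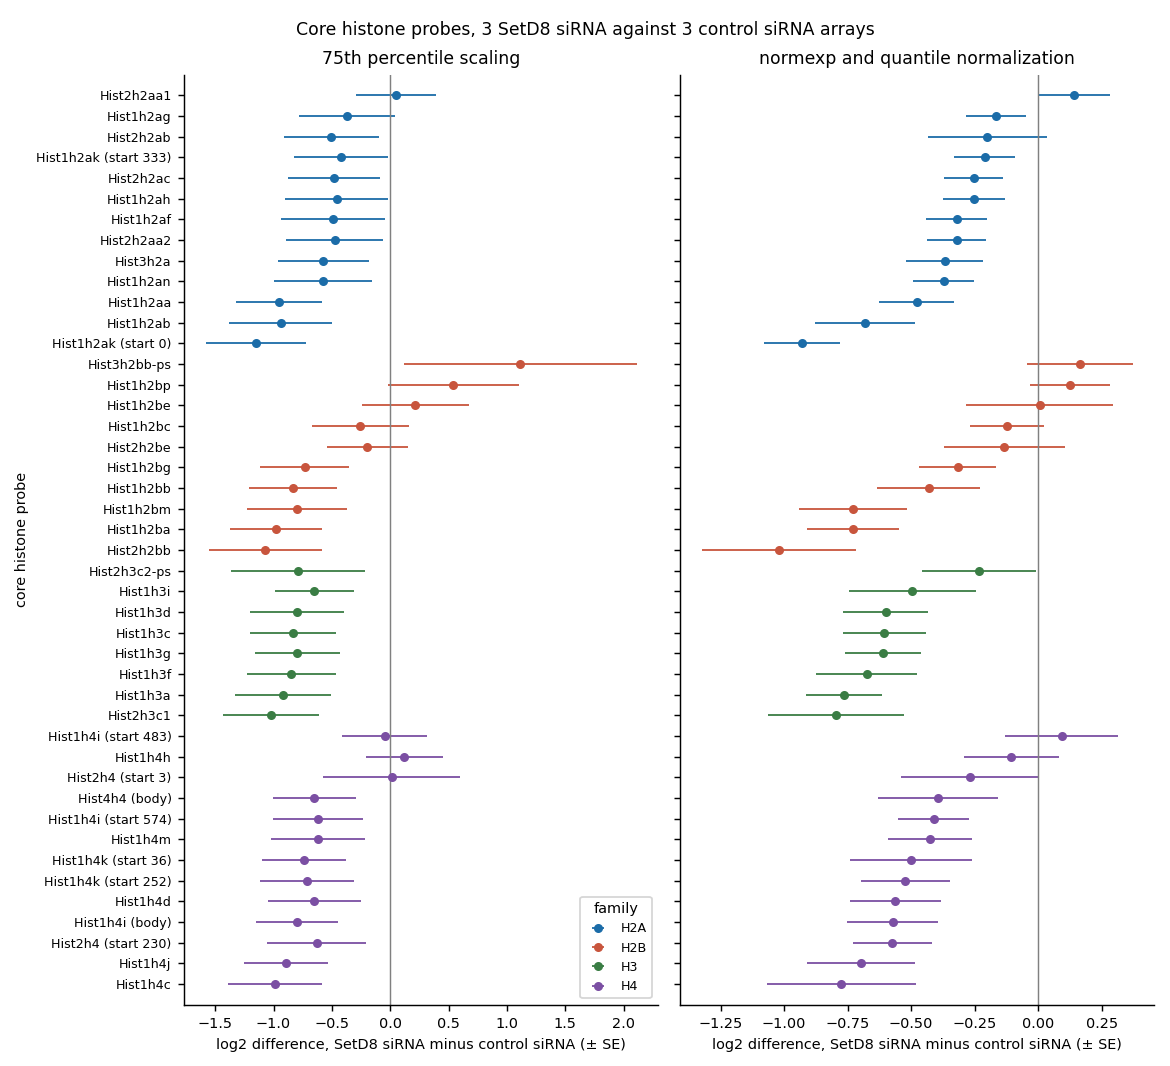
Log2 difference (SetD8 siRNA minus control siRNA, 3 arrays each) of the 44 kept core histone probes, with bars of 1 standard error from limma, coloured by family and ordered within it by the quantile scale. Most points lie left of 0 in both panels, the H3 probes all of them, and the bars are shorter on the quantile scale.

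Counts without single arrays show how much each one carried. Leaving out control 3, the array with the most spots above background, raised the number of core histone probes whose groups do not overlap from 17 to 35 on the 75th percentile scale, but the share of all probes also went from 3.02% to 31.4%. Without any other array the count stayed between 17 and 22 on that scale, with 3.66% to 7.28% of all probes. The quantile count was 29 to 32 of 44 whichever array was left out, with 10.04% to 23.2% of all probes. Fewer arrays make such a separation easier for any probe, so these counts are to be read against those shares.

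H2A, which with H2B forms the dimers flanking the central tetramer of the nucleosome, had 13 kept probes of 15. Their median difference was -0.49 and -0.32 on the 75th percentile and quantile scales, and 12 of 13 were negative on each. The first median moved with single arrays, to -0.23 without control 2, -0.77 without control 3 and -0.32 without SetD8 1. The probe at the start of Hist1h2ak stood lowest of all core histone probes on the 75th percentile scale. Its quantile values were 16.16, 15.97 and 15.80 in controls 1 to 3 against 15.04, 15.19 and 14.92 in SetD8 1 to 3. The groups did not overlap on either scale, with SetD8 1.91-fold lower on the quantile scale (-0.93 ± 0.15, limma adjusted p = 0.0795) and by -1.15 ± 0.43 on the other (limma adjusted p = 0.931). That quantile value is the smallest adjusted p of any core histone probe, and on the 75th percentile scale all 44 had an adjusted p of at least 0.931. Hist1h2ab, whose probe starts at base 435 of the transcript, read 16.27, 16.05 and 16.17 in controls 1 to 3 against 15.09, 15.76 and 15.59 in SetD8 1 to 3 on the quantile scale. All 3 SetD8 arrays were below all 3 controls, by -0.68 ± 0.20 (limma adjusted p = 0.263).

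The nearly identical H2A ends behaved alike and differed less. The set holds 6 kept probes by sequence (Hist1h2af, Hist1h2ag, Hist1h2ah, the second Hist1h2ak probe, Hist1h2an and Hist2h2aa2), and their differences ran from -0.57 to -0.37 on the 75th percentile scale and from -0.37 to -0.17 on the quantile scale. Hist1h2ah, whose probe the annotation assigns to 4 RefSeq transcripts, read 17.98, 18.04 and 17.98 in controls 1 to 3 against 17.67, 17.86 and 17.71 in SetD8 1 to 3 on the quantile scale. The control arrays lay within a narrow band and every SetD8 array beneath it, with a difference of -0.25 ± 0.12 (limma adjusted p = 0.561). Quantile normalization gives every array the same set of values, assigned by rank. The erythroid marker Hba-a1 read 18.28 on all 6 arrays, so these H2A probes lie close to the top of that scale. The part of this in their narrow spread and small quantile differences was not tested. On the 75th percentile scale Hist1h2ah read 10.83, 11.41 and 10.13 in controls 1 to 3 against 9.99, 10.66 and 10.35 in SetD8 1 to 3. There control 3 was below SetD8 2 and SetD8 3, so the groups overlapped. Hist2h2aa2, Hist2h2ab and Hist2h2ac, Hist2 copies of H2A whose probes lie near the end of the coding sequence, gave -0.32 ± 0.12, -0.20 ± 0.24 and -0.25 ± 0.12 on the quantile scale; by sequence only the first belongs to the near-identical set. Hist2h2ab stood at -0.50 ± 0.41 on the 75th percentile scale. The spots of the 6 near-identical probes reached 17.5% to 47.8% of the scanner's saturation value and none was saturated. The other 5 H2A probes in the message body, Hist2h2ab and Hist2h2ac among them, had a median of -0.94 and -0.48, against -0.47 and -0.29 for the 6 near-identical probes; this split was made after the values were seen and was not tested.

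Hist1h2aa and Hist1h2ba encode the testis-enriched forms of H2A and H2B and lie next to each other at the far end of the Hist1 cluster. Hist1h2ba read 4.75, 5.20 and 4.23 in controls 1 to 3 against 3.42, 3.97 and 3.87 in SetD8 1 to 3 on the 75th percentile scale and 12.16, 12.09 and 12.32 in controls 1 to 3 against 11.14, 11.74 and 11.50 in SetD8 1 to 3 on the quantile scale. All SetD8 arrays were below all controls on both, by -0.98 ± 0.39 (limma adjusted p = 0.931) and -0.73 ± 0.18 (limma adjusted p = 0.201). Hist1h2aa read -1.89, -2.20 and -1.42 in controls 1 to 3 against -2.51, -3.02 and -2.85 in SetD8 1 to 3 on the 75th percentile scale. It also did not overlap between groups on either scale, with differences of -0.95 ± 0.37 and -0.48 ± 0.15. Each of these 2 probes is assigned to 1 RefSeq transcript.

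H2B, the partner of H2A in the nucleosome's dimers, had 10 kept probes of 12. Its medians were -0.50 and -0.22, and 7 of 10 were negative on each scale. Without control 2 the first median was -0.31, and without control 3 the second was -0.37. The 4 kept H2B probes in the message body had medians of -0.82 and -0.58, with 3 of 4 negative on each scale. Hist2h2bb, whose probe ends at the stem-loop shown above, had the most negative difference of the family on both scales. On the 75th percentile scale it read 4.88, 5.13 and 4.13 in controls 1 to 3 against 2.89, 4.17 and 3.87 in SetD8 1 to 3, with SetD8 1 far below the rest and SetD8 2 just above control 3. Its quantile values were 11.99, 11.71 and 12.23 in controls 1 to 3 against 10.32, 11.45 and 11.10 in SetD8 1 to 3, and the groups did not overlap. The differences were -1.07 ± 0.48 and -1.02 ± 0.30, the second a 2.03-fold lower signal (limma adjusted p = 0.281). Hist1h2bm, assigned to 4 RefSeq transcripts, differed by -0.80 and -0.73, and Hist1h2bb by -0.83 and -0.43. The other 6 H2B probes, Hist1h2bc, Hist1h2be, Hist1h2bg, Hist1h2bp, Hist2h2be and the pseudogene Hist3h2bb-ps, lay between -0.32 and 0.16 on the quantile scale. On the 75th percentile scale they lay between -0.73 (Hist1h2bg) and 1.12 (Hist3h2bb-ps), with Hist1h2bp at 0.54 ± 0.56. For Hist1h2bg all SetD8 arrays were below all controls on both scales. Hist3h2bb-ps ran from -4.89 on control 2 to -0.80 on control 3 on the 75th percentile scale, so its difference of 1.12 ± 1.00 lies within the spread of the controls.

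H3, which forms the central tetramer with H4 and carries many of the best known tail marks, was the most even family. All 8 probes were kept and all 8 had a negative difference on both scales, with medians of -0.82 and -0.61. Hist2h3c1 read 5.42, 5.65 and 4.88 in controls 1 to 3 against 3.74, 4.63 and 4.51 in SetD8 1 to 3 on the 75th percentile scale. All SetD8 arrays were below all controls on both scales, by -1.02 ± 0.41 and -0.79 ± 0.27 (limma adjusted p = 0.931 and 0.349). The annotation assigns this probe to 3 transcripts of the Hist2 cluster, so the value may belong to any of these copies. Hist1h3a, whose probe ends at the stem-loop, read 8.61, 8.91 and 8.73 in controls 1 to 3 against 7.80, 8.04 and 8.12 in SetD8 1 to 3 on the quantile scale. Its groups did not overlap there, with a difference of -0.76 ± 0.15 (limma adjusted p = 0.12), nor on the 75th percentile scale, where the difference was -0.92 ± 0.41.

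The remaining H3 probes were negative on both scales, Hist2h3c2-ps the least so on the quantile scale. Hist1h3f differed by -0.85 and -0.68, and Hist1h3d, assigned to 4 RefSeq transcripts, by -0.79 and -0.60. Hist1h3c and Hist1h3g, each assigned to 1 transcript, had quantile differences of -0.61 ± 0.16 and -0.61 ± 0.15. Hist1h3i, the least negative on the 75th percentile scale, stood at -0.65 ± 0.34, and on the quantile scale SetD8 2 overlapped its controls. Hist2h3c2-ps, annotated as a pseudogene, was well above background on all 3 controls but on only 1 SetD8 array, and its difference of -0.23 ± 0.22 on the quantile scale was about its own error.

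H4 is encoded by many genes with the same protein, and its tail carries the lysine that SetD8 methylates. It had 13 kept probes of 14, medians of -0.65 and -0.50, and negative differences for 11 and 12 of 13. Hist1h4c, one of the probes that spans the lysine codon, read 2.63, 2.82 and 2.32 in controls 1 to 3 against 0.99, 1.84 and 1.97 in SetD8 1 to 3 on the 75th percentile scale. SetD8 1 was the lowest array and the groups did not overlap, with a difference of -0.98 ± 0.40 there and -0.77 ± 0.29 on the quantile scale (limma adjusted p = 0.931 and 0.415). Hist1h4j read 3.70, 3.79 and 3.21 in controls 1 to 3 against 2.35, 2.82 and 2.86 in SetD8 1 to 3, again without overlap, and differed by -0.89 ± 0.36 and -0.70 ± 0.21. The other probes over the lysine codon, Hist1h4d and the first Hist1h4k probe, had quantile differences of -0.56 ± 0.18 and -0.50 ± 0.24.

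Hist2h4 and Hist4h4 are H4 copies outside the large cluster. The Hist2h4 probe at base 230 read 16.75, 16.52 and 16.75 in controls 1 to 3 against 15.90, 16.30 and 16.09 in SetD8 1 to 3 on the quantile scale. No SetD8 array reached the lowest control, and the difference was -0.57 ± 0.15 (limma adjusted p = 0.234), with -0.63 ± 0.43 on the 75th percentile scale. Hist4h4, a single gene on chromosome 6, gave -0.65 ± 0.36 and -0.39 ± 0.24, and its groups did not overlap on the first scale only. Hist1h4h was the most positive H4 probe on the 75th percentile scale, at 0.12 ± 0.33, a value smaller than its error, and was negative on the quantile scale at -0.11 ± 0.19.

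**Figure D2:**
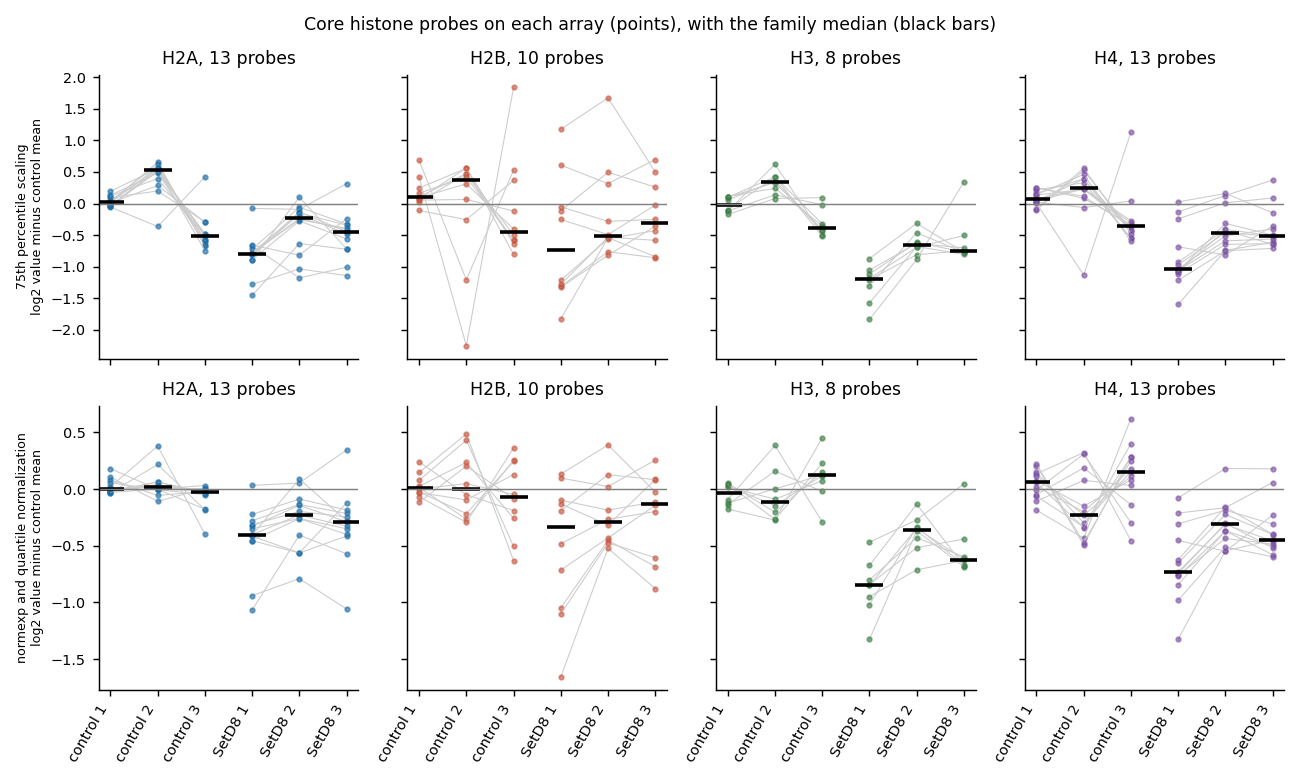
Log2 value of each kept core histone probe on each array minus that probe's control mean, by family (columns) and scale (rows); points are probes, grey lines join a probe's arrays within a group, and black bars are the family median on that array. On the 75th percentile scale control 2 is high and control 3 low in every family; on the quantile scale the family medians of the 3 SetD8 arrays are below those of the 3 controls in all 4 families.

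The medians of all 44 probes on each array follow the same course. Set against each probe's control mean, they were 0.06, 0.39 and -0.43 in controls 1 to 3 against -0.95, -0.48 and -0.50 in SetD8 1 to 3 on the 75th percentile scale. The 3 controls were within 0.01 of 0 on the quantile scale, and the SetD8 arrays stood at -0.55, -0.31 and -0.40. SetD8 1 was thus the lowest array on both scales, and control 3 came within 0.05 of the nearest SetD8 array on the first. Single families spread more on the quantile scale. The H4 medians there were 0.06, -0.23 and 0.15 in controls 1 to 3 against -0.73, -0.31 and -0.45 in SetD8 1 to 3.

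Where a probe sits on its message went with the size of its difference. Probes were sorted, after their values had been seen, into 3 places. Body probes start at base 0 to 435 of the annotated transcript, and stem-loop probes hold the stem-loop letters. Distal probes lack those letters and start at base 480 or later, past the usual end of a mature histone message. Stem-loop probes started at base 345 to 541, so a distal probe need not lie past the end of its own message. The 30 body probes had medians of -0.73 and -0.51, the 5 kept stem-loop probes -0.65 and -0.50, and the 9 kept distal probes -0.26 and -0.13. The distal medians rest on single arrays: they were -0.065 and -0.040 without control 2, -0.55 and -0.36 without control 3, -0.15 on the 75th percentile scale without SetD8 2 and -0.22 on the quantile scale without SetD8 3. Without control 3 the body medians were -0.92 and -0.48. By family and with all arrays, body probes had medians of -0.49 and -0.32 for H2A (11 probes) and -0.82 and -0.58 for H2B (4). They were -0.83 and -0.61 for H3 (5) and -0.68 and -0.54 for H4 (10). The families hold these places in unlike shares, and whether the families differ was not tested. Every SetD8 array was below every control on the quantile scale for 23 of 30 body probes, 3 of 5 stem-loop probes and 3 of 9 distal probes. Signal moved with this class: on the 75th percentile scale the mean level of distal probes ran from -2.71 to 1.44, and that of body probes from -2.31 to 10.6. The other 4 distal probes and 1 stem-loop probe were too dim to be kept. The offset of 50 in the background correction pulls differences of dim probes toward 0 on the quantile scale, and the part of signal level in this contrast was not tested.

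Genes with several probes allow the same contrast within a gene. Hist1h4i has 3 kept probes: the one in its body differed by -0.80 ± 0.35 and -0.57 ± 0.18, the one starting at base 483 by -0.05 ± 0.36 and 0.09 ± 0.22, and the one starting at base 574 by -0.62 ± 0.39 and -0.41 ± 0.14. The 2 distal probes of this gene therefore gave different values, a difference that was not tested. In Hist1h2ak the start and end probes differed by -0.93 and -0.21 on the quantile scale, and the end probe is one of the near-identical H2A ends assigned to 3 transcripts. In Hist1h4k the probes at base 36 and base 252 gave -0.50 and -0.52. Besides the probe at base 230, Hist2h4 had a probe at base 3 that read -0.76, -1.90 and 0.36 in controls 1 to 3 against -0.74, -0.61 and -0.91 in SetD8 1 to 3 on the 75th percentile scale, with controls spread over more than 2 log2 units and a difference of 0.01 ± 0.59. Hist2h2aa1, whose probe runs 42 bases past the stem-loop letters, differed by 0.05 ± 0.34 and 0.14 ± 0.14, and Hist3h2a, an H2A of the small Hist3 cluster with a distal probe, by -0.57 ± 0.39 and -0.37 ± 0.15. Hist2h2be, an H2B with a distal probe in the Hist2 cluster, stood at -0.20 ± 0.35 and -0.13 ± 0.24.

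**Figure D3:**
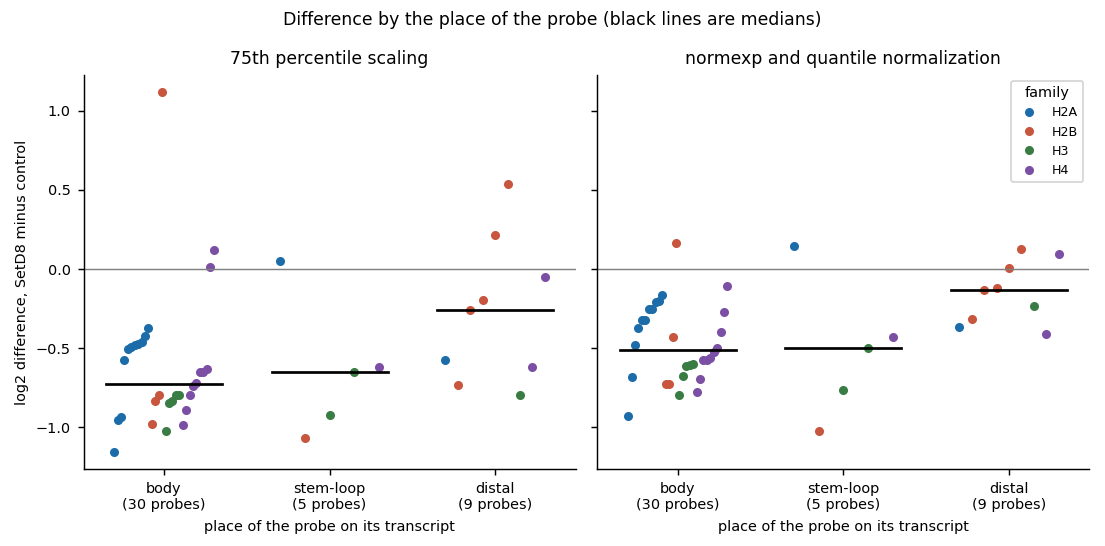
Log2 difference (SetD8 minus control) of the 44 kept core histone probes by the place of the probe on its transcript, coloured by family, with black lines at the medians. On the quantile scale 29 of 30 body probes are below 0, and the distal probes lie from -0.41 to 0.12.

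The filter left out 5 probes. Hist1h2ac (distal) was well above background on 4 arrays and Hist1h2ae (stem-loop) on 3, Hist3h2ba on 1 SetD8 array, and Hist1h2bq and the distal Hist4h4 probe on none; no difference is given for them. Another 3 probes passed the filter through 1 group alone: Hist2h3c2-ps through the controls, and Hist1h2bp and Hist3h2bb-ps through the SetD8 arrays. Without those 3 the median difference was -0.65 and -0.43.

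By cluster, medians were negative in both of the larger groups. The 31 kept Hist1 probes, on chr13:21814057-24026527 of mm9, had medians of -0.73 and -0.50, with 28 negative on each scale. Hist1 falls into 4 stretches separated by gaps, and the medians of the 2 largest, of 10 and 15 kept probes, were -0.68 and -0.79 on the 75th percentile scale and -0.50 and -0.56 on the quantile scale. The 10 Hist2 probes, on chr3:96024171-96074115, had medians of -0.49 and -0.26, with 8 and 9 negative; without SetD8 1 the first was -0.32. Every SetD8 array lay below every control for 15 of 31 Hist1 and 1 of 10 Hist2 probes on the 75th percentile scale and for 23 and 5 on the quantile scale. Of the Hist2 probes, 4 are H2A probes, 3 of which had quantile differences between -0.32 and -0.20 and the other 0.14. Whether the clusters differ was not tested. Hist3 had 2 kept probes with values on both sides of 0 on both scales, and Hist4 had 1.

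Within the slides that hold both groups, the quantile differences were negative in both slides for 26 of 30 body probes, 4 of 5 stem-loop probes and 3 of 9 distal probes. No share over all kept probes was computed for counts of signs within slides, so these counts have no background beside them. The median of the 44 core histone probes within slide 1, which sets SetD8 1 and 2 against control 1, was -0.44. Within slide 3, which sets SetD8 3 against control 3, it was -0.38. All kept probes had quantile medians of -0.003 within slide 1 and 0.046 within slide 3. For Hist2h2bb the within-slide differences were -1.11 and -1.13, for Hist2h3c1 -0.89 and -0.91, for Hist1h4c -0.87 and -0.85, and for Hist1h2ba -0.72 and -0.81. These 4, chosen after their values were seen, gave nearly the same value in both slides, and the median gap between the slides over the 30 body probes was 0.078. Outside the distal probes the gap was widest for Hist1h3i (-0.23 and -1.13) and the Hist2h4 probe at base 3 (-0.06 and -0.93), and the sign differed for Hist1h2bb (-0.60 and 0.11), Hist1h4h, Hist2h2ab, Hist2h2aa1 and Hist3h2bb-ps. For the 9 distal probes the median gap was 0.613, and their median was -0.23 within slide 1 and 0.34 within slide 3. On the 75th percentile scale the slides disagreed. The median of the 44 probes was -0.81 within slide 1, where all kept probes had a median of -0.07. Within slide 3 it was -0.06, where all kept probes had a median of 0.21, and 24 of the 44 were negative. H3 kept the most negative family median there, at -0.37, and H2A stood at 0.14. With the slide as a block in limma the medians were -0.53 and -0.37, and 0 of 44 passed on either scale. Slide 3 holds 1 array of each group, so its values have no replicate error.

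**Figure D4:**
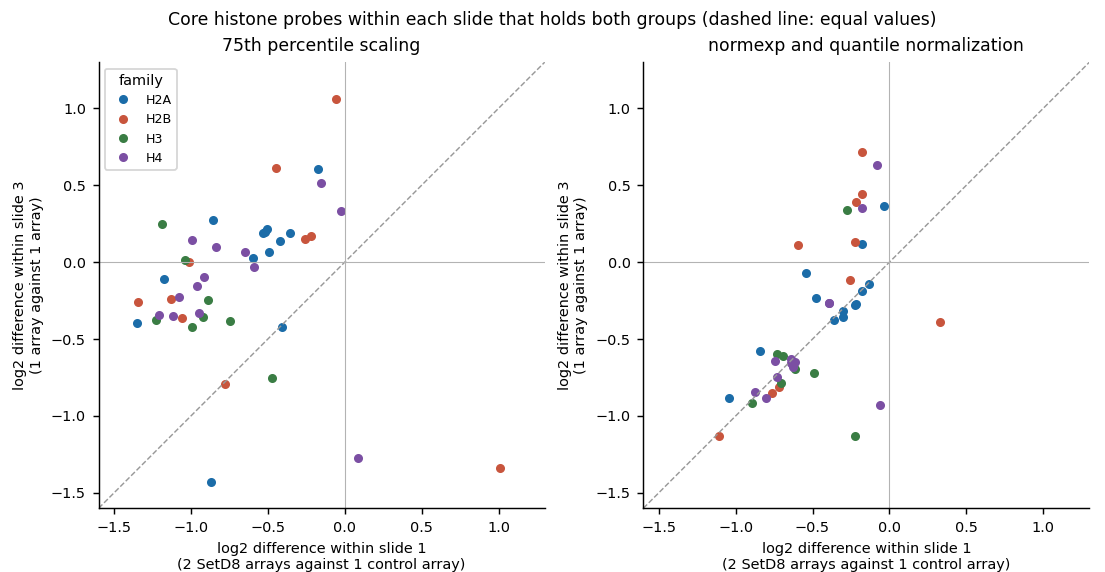
Log2 difference of each kept core histone probe within slide 1 (x axis) and within slide 3 (y axis), on each scale, coloured by family; the dashed line marks equal values. On the quantile scale most H3 and H4 probes lie near the line between -0.5 and -1, while on the 75th percentile scale most points lie above it.

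Copies that share sequence limit what can be said of a single gene. The annotation assigns 16 of the 49 probes to more than 1 RefSeq transcript, up to 4, and this is a lower bound. By their letters, 9 probes share at least 90% of their overlapping bases with another core histone probe, in 14 pairs, all within a family. The 29 kept probes with at most 1 RefSeq transcript had medians of -0.63 and -0.41, and the 15 with several had -0.65 and -0.50. All 43 gene names matched a current symbol in RefSeq (for example Hist1h2ba is now H2bc1 and Hist2h3c1 is now H3c14).

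The promoters of these genes are 1 of the places where S phase control is exerted. RefSeq (GRCm38.p6) gave a start site for 37 of the 43 genes, with 38 promoters. The search covered 3 motifs on both strands of the 250 bases before each start, the octamer ATTTGCAT, bound by OCT1 and known from H2B promoters, the CCAAT box, and TATAAA. None of these motifs contains another. The octamer stood in 6 of 10 H2B and 7 of 14 H2A promoters, in 0 of 6 H3 and 0 of 8 H4 promoters, and in 1.60% of all 32851 promoters. CCAAT stood in 30 of 38 (33.8% of all), among them all 14 H2A and all 10 H2B promoters, and TATAAA in 18 of 38 (12.4% of all). Many H2A and H2B genes are divergent pairs that share 1 stretch, so these are not independent. The 150 bases before the start of Hist2h2bb, the H2B gene with the most negative difference, show the arrangement, with motif matches in capitals (chr3:96269550-96269699, plus strand):

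Hist2h2bb promoter: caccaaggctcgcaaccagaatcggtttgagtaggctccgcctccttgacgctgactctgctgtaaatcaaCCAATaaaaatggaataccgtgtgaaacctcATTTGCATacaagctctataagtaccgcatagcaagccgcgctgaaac

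The CCAAT box precedes the octamer here, and TATAAA itself is not among these letters. A match is a description of the sequence, and no binding was measured.

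The other genes of the pathway, listed with earlier results of these data known, did not pass the test either, apart from Setd8. Counts of negative genes in these lists are to be read against all kept probes. Of those, 44% were negative on the 75th percentile scale and 47.6% on the quantile scale. Of the linker histones, which close the nucleosome, 7 of 8 were kept, 4 of 7 were negative on each scale, and 0 passed in either direction. The positive ones had wide errors on the 75th percentile scale. Hist1h1d (0.67 ± 0.68) and H1fx (1.09 ± 0.86) were well above background on 5 arrays, and Hist1h1t (0.79 ± 0.90) ran from -1.23 to 2.37 in controls. Summed levels, in which bright genes weigh most, were 282 to 571 on control and 149 to 220 on SetD8 arrays. Hist1h1b, the linker made in dividing cells, read 15.56, 15.34 and 15.25 in controls 1 to 3 against 14.17, 14.42 and 14.38 in SetD8 1 to 3 on the quantile scale. Its groups did not overlap, and it differed by -1.06 ± 0.15 (limma adjusted p = 0.0517) and by -1.35 ± 0.42 on the 75th percentile scale (limma adjusted p = 0.931). Hist1h1a stood at -1.15 ± 0.21 and Hist1h1e at -0.72 ± 0.26 on the quantile scale.

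Replacement variants, most of which are made throughout the cell cycle from polyadenylated messages, were negative for 7 of 8 genes on both scales with medians of -0.43 and -0.18, and 0 passed. H3f3b, one of the genes of the variant H3, gave -0.67 ± 0.14, H2afx, the variant phosphorylated at DNA breaks, whose message also exists in a stem-loop form made in S phase, -0.87 ± 0.18, and H2afy, macroH2A, -0.46 ± 0.17 on the quantile scale. Of 19 genes for histone gene transcription and for processing of the message's end, 17 were kept, 16 and 12 were negative, and 0 passed. Slbp, the stem-loop binding protein, stood at -0.61 ± 0.29, Cstf2, a cleavage factor subunit, at -0.87 ± 0.19 and Zfp473, a zinc finger protein of the processing complex, at -0.31 ± 0.19. Lsm10, of the same list and chosen after its values were seen, was higher with SetD8 siRNA. It read 12.34, 12.35 and 12.16 in controls 1 to 3 against 12.92, 12.98 and 12.56 in SetD8 1 to 3 on the quantile scale. Its difference was 0.54 ± 0.16 there (limma adjusted p = 0.279) and 0.35 ± 0.48 on the 75th percentile scale. Npat, the coactivator of these clusters, was well above background on 3 of 6 arrays and was not kept.

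Histone chaperones, which carry new histones to DNA, were negative for 15 of 15 and 13 of 15 genes, and 0 passed. Nasp, a chaperone of H3 and H4, differed by -0.76 ± 0.14, Asf1a by -0.40 ± 0.28 and Chaf1b, a subunit of the assembly factor CAF-1, by -0.39 ± 0.14. Genes of DNA replication, the process that core histone supply follows, were negative for 21 of 21 on both scales (44% and 47.6% of all kept probes). Their medians were -0.66 and -0.49, and 0 passed. Pcna, the sliding clamp, read 13.51, 13.68 and 13.28 in controls 1 to 3 against 12.91, 12.64 and 12.73 in SetD8 1 to 3 on the quantile scale and differed by -0.73 ± 0.16 (limma adjusted p = 0.146), Mcm4, a helicase subunit, by -0.68 ± 0.17, and Cdc45, which activates that helicase, by -0.59 ± 0.18. The core histone medians of -0.65 and -0.42 thus lay close to those of the replication genes. The methyltransferases that add further methyl groups to H4 lysine 20 stood at -0.48 ± 0.20 for Suv420h1 (the brightest of its 4 kept probes) and -0.04 ± 0.13 for Suv420h2. Among erythroid markers, 9 of 11 were negative on the 75th percentile scale and 6 on the quantile scale, 0 passed, and the median was -0.27 on the 75th percentile scale and close to 0 on the quantile scale. The part of cell composition in the core histone values was not tested.

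**Figure D5:**
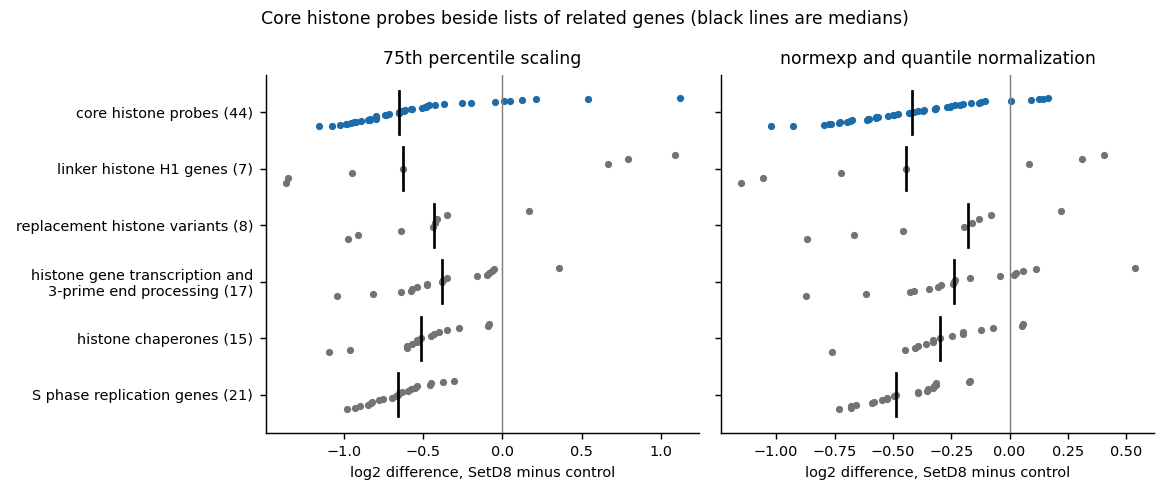
Log2 difference (SetD8 minus control) of the 44 kept core histone probes and of the kept genes of 5 related lists (1 probe each, numbers in brackets), on both scales, with black lines at the medians. The medians of the core histone probes and of the S phase replication genes lie close together, and the linker histone genes fall on both sides of 0.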

How the data were processed

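RNA of 3 control siRNA and 3 SetD8 siRNA samples was measured on 1-colour Agilent arrays, grouped by the sample titles. The scanner files deposited by the authors hold spot intensity on a linear scale, and their headers name Agilent Feature Extraction 10.7.3.1 and the build mm9, per the file headers. The series matrix of the authors holds the same processed intensity, not normalized between arrays (100% of values matched within 0.006). The submitters' processing notes name limma; the sources used here do not give the authors' normalization or test.

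Outlier spots (139 to 176 per array) and controls were left out, spots of a probe averaged as log2, and each probe treated separately. The 75th percentile scale is log2 processed signal minus the array's 75th percentile; the quantile scale uses normexp (offset 50) on mean signal and median background, then quantile normalization. Differences were tested two-sided with limma 3.58.1 (lmFit, eBayes) in R 4.3.3; p-values were adjusted by Benjamini-Hochberg over 30971 kept probes, with a threshold of 0.05, and the same script was tested on simulated data. Sums over marker or linker histone genes add linear levels. Summaries used pandas 2.3.3 and numpy 2.4.6 under Python 3.11.15; matplotlib 3.10.9 drew the plots.

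Named with values are Setd8; in each family the brightest kept probe, the 3 most negative and the most positive on the 75th percentile scale; all kept Hist2, Hist3 and Hist4 probes; and up to 3 genes of each list with the smallest p. Any other name was picked with its values in view. Setd8, the genes of the lists and the cell type markers are each given by the brightest kept probe. The members, lists and rules were chosen with earlier results of these data known. Alternatives were other background corrections and scalings, filters, 1 probe per gene, slide or replicate number as a block, values within slides, other moderation, array weights, the series matrix and leaving out each array. Chosen after seeing the data were probes with 1 RefSeq transcript and the counts of groups that do not overlap without each array.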

Additional observations from a re-analysis of the deposited data

How the results depend on the processing

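Across the alternatives, the median of all core histone probes stayed negative, at -1.15 to -0.063 on the 75th percentile scale and -0.46 to -0.34 on the quantile scale, and the extremes of the first were median scaling (-1.15, where all kept probes had a median of -0.41) and slide 3 alone (-0.063). The same alternatives moved the family medians: with median scaling they were -0.99 for H2A, -0.99 for H2B, -1.31 for H3 and -1.15 for H4, and within slide 3 they were 0.14, -0.12, -0.37 and -0.093. On the quantile scale the H2B median was -0.13 with the slide as a block, 0.00072 within slide 3 and -0.37 for probes well above background on all arrays; it ran from -0.37 to -0.16 without single arrays. The H2A median was -0.25 with no filter. Within slide 3 on the 75th percentile scale 24 core histone probes were negative, with no share of all probes computed.

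Calls depended on how the spread was estimated. On the 75th percentile scale 21 core histone probes passed with array weights, which gave control 1 a weight of 9.71 and controls 2 and 3 weights of 0.143 and 0.172. On the quantile scale 20 passed with array weights, 8 with trend and robust moderation and 1, the start probe of Hist1h2ak (adjusted p = 0.033), with the stricter filter; all of these were lower with SetD8 siRNA. No other alternative called any. Over all probes, the 75th percentile scale called 122 with the stricter filter, 127 with the slide block, 4 with trend and robust moderation, 3926 with array weights, 24 with normexp and 0 to 103 without single arrays. The quantile scale called 367, 0, 800 and 3107 under the first 4 of these, and 0 to 106 without single arrays. The replicate number as a block called 0 probes on either scale; same-numbered arrays did not deviate together (correlations of 0.23, -0.28 and -0.42 on the 75th percentile scale), so the numbers were not taken as pairs. Counts of core histone probes whose groups do not overlap were 17 to 35 and 29 to 32 of 44 without single arrays. The shares of all probes were 3.66% to 31.4% and 10.04% to 23.2%. Of 972 values of the 28 named probes under alternatives, 37 passed the threshold and 39, over 14 probes, changed sign; no named probe had passed before.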
